A study of Rattus norvegicus with 6 samples.

Results

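The genes of glycolysis and of the fate of pyruvate were examined in rat nucleus pulposus cells, the cells of the soft core of the intervertebral disc, with and without cyclic stretching. They are 37 genes chosen by name, in the order of the pathway: glucose uptake and phosphorylation, the steps down to pyruvate, lactate production and export, and the entry of pyruvate into the mitochondrion. All 37 were among the 22573 rows used, and the 32 whose values over the 6 libraries averaged 1 FPKM or more were tested. The deposited values were taken as FPKM, a fragment count divided by transcript length and by library size. Levels are set side by side between genes on that reading. Those of several glycolytic genes are uncertain, for reasons given with the processing.

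The study compared 3 control libraries with 3 libraries of cells held under cyclic tensile strain for 24 h at 18% elongation and 0.2 Hz on a Flexcell device, all from Sprague Dawley rats. The treatment note is identical for all 6 samples, so the controls count as unstretched from their class label alone. The sources used here give neither the number of animals nor the passage nor the medium, and so not the glucose supply. The labels do not say whether replicates are separate animals or cultures; p-values therefore reflect the spread among these libraries alone, which may be technical.

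Glycolysis splits glucose into pyruvate in the cytosol and yields ATP without oxygen. Lactate dehydrogenase turns pyruvate into lactate and regenerates the NAD that the pathway needs, and monocarboxylate transporters carry the lactate out. Pyruvate that enters the mitochondrion through its carrier is oxidised by the pyruvate dehydrogenase complex, which pyruvate dehydrogenase kinases switch off and phosphatases switch on. The disc core has no blood vessels, and its cells are known for relying on glycolysis and for constant activity of the hypoxia factor HIF-1.

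Summed FPKM per library was 308780 to 347508, and the depth of the libraries is unknown. The glycolysis and pyruvate genes took 1.11% to 1.33% of it in controls and 1.36% to 1.49% under strain. These shares did not overlap between groups. The summed FPKM of the genes did overlap, at 3697 to 4611 in controls and 4259 to 5160 under strain. Of 18 nucleus pulposus markers in the files, 11 reached the filter; 7 of these were higher under strain and 1, Cdh2, was lower, where 16.4% and 19.0% of all tested genes were higher and lower. The notochordal gene T stayed near 0.1 FPKM, the cytokeratin genes Krt18 and Krt19 averaged under 0.1 FPKM in both groups, Noto and Shh were listed at 0 in every library, and Col2a1 stood at 0.0104 to 0.0682 FPKM in controls and 0.445 to 1.41 FPKM with strain. Another cytokeratin gene, Krt8, rose from 4.19 ± 1.28 to 8.34 ± 2.52 FPKM (limma adjusted p = 0.017). Among markers of other cells, 1 of 4 tested macrophage genes was higher and 2 were lower. The higher one, Lyz2, was at 0.166 to 0.413 FPKM in controls and 2.06 to 5.13 FPKM with strain (limma adjusted p = 0.00068). It reached the filter through its strain values alone. Cd68 fell from a mean of 1.53 to 0.633 FPKM and Adgre1 from 3.71 to 1.31 FPKM (limma adjusted p = 0.0088 and 0.030). The 1 tested endothelial gene was higher. Under the filter, the endothelial gene Flt1 was at 1.16 to 1.58 FPKM in controls and 0.465 to 0.497 FPKM with strain. Pecam1 and Erg of the same list went the other way without overlap, at 0.294 FPKM or less. Of the red blood cell genes, 6 of 8 were at 0 in every library, and the leukocyte gene Ptprc averaged 0.023 FPKM or less in each group. In bulk RNA, fewer cells of a type and less RNA per cell cannot be told apart.

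Strain changed 14 of the 32 tested genes: 9 were higher and 5 lower (limma, Benjamini-Hochberg adjusted p under 0.05 over all 10180 genes tested). Over all tested genes 35.4% were called, 16.4% higher and 19.0% lower. The glucose transporter GLUT1, both hexokinases, the neuronal isoform of enolase and the lactate transporter MCT1 were lower. Higher were 5 enzymes of the middle steps, the muscle isoform of enolase, 2 pyruvate dehydrogenase kinases and 1 subunit of the mitochondrial pyruvate carrier. The groups did not overlap in 18 of the 32, where 51.9% of all tested genes did not overlap. The median log2 fold change was 0.17 for the 32 genes and -0.01 for all tested genes. The median of the 32 was 0.25 without control replicate 1, 0.09 without control replicate 2 and 0.08 without strain replicate 3. When each library was scaled to the same summed FPKM, a setting chosen after the data were seen, 13 members were higher and 5 lower, and over all genes 2077 were higher and 1551 lower in place of 1672 and 1936.

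**Figure D1:**
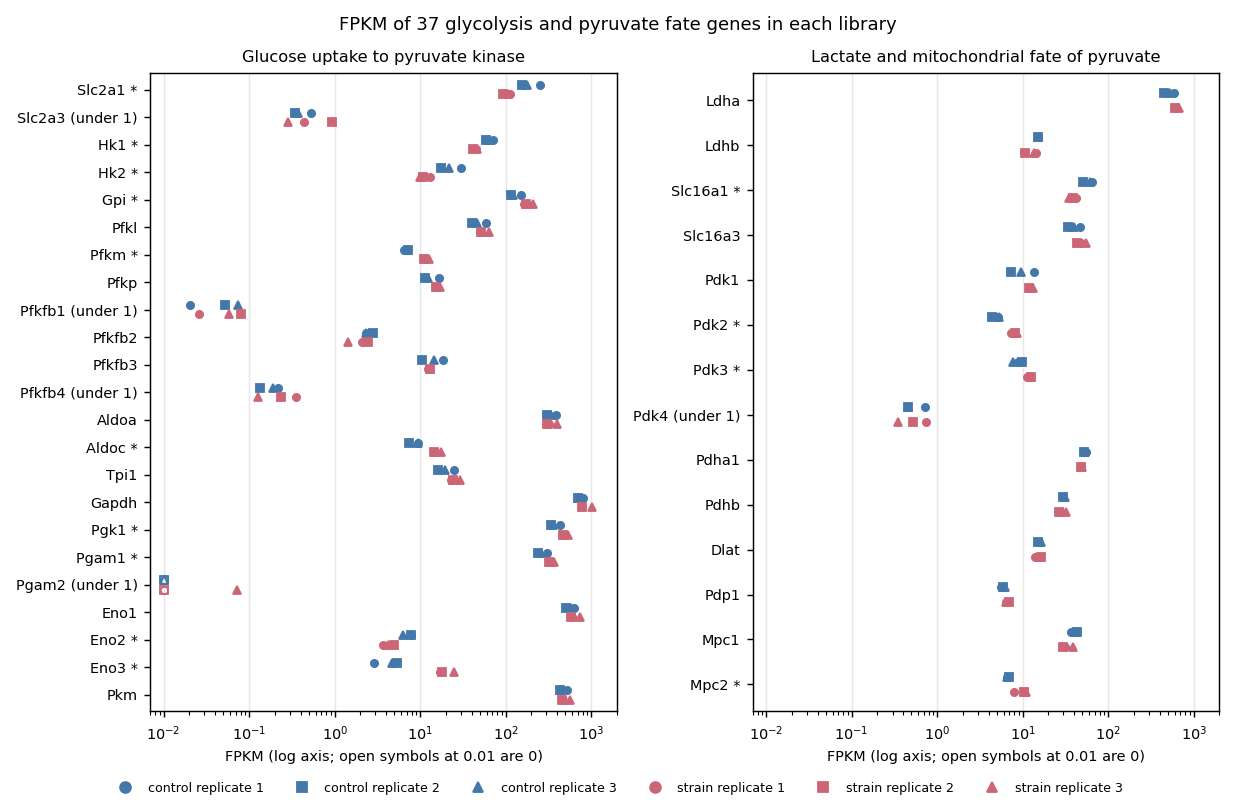
FPKM of each of the 37 genes in each library on a log axis, in pathway order from top to bottom; blue symbols are control and red symbols strain libraries, and an asterisk marks genes called by limma. The control symbols of Slc2a1, Hk1, Hk2, Eno2 and Slc16a1 lie to the right of the strain symbols, and those of Eno3 lie far to the left.

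The first steps were lower. Slc2a1, which encodes GLUT1, the widespread glucose transporter of the plasma membrane, stood at 253, 155 and 179 FPKM in control replicates 1, 2 and 3 and at 113, 93.0 and 106 FPKM in strain replicates 1, 2 and 3. Every strain library was below every control, and the mean fell 1.88-fold, from 195 ± 50.9 to 104 ± 10.2 FPKM (SD, n = 3; log2 fold change -0.88 ± 0.17 SE, limma adjusted p = 0.0045). Control replicate 1 was well above the other controls. The second transporter gene, Slc2a3 (GLUT3), was under the filter at 0.285 to 0.944 FPKM in all 6 libraries, so Slc2a1 made up at least 98.995% of the FPKM of this pair in each library.

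Hexokinases trap glucose in the cell as its phosphate. Hk2, the inducible hexokinase, stood at 30.2, 17.8 and 21.7 FPKM in controls and at 12.9, 10.8 and 9.86 FPKM in strained cells. Its mean fell 2.07-fold, the largest fall among the 37 genes on the log2 scale (-0.97 ± 0.18 SE, limma adjusted p = 0.0034). Hk1, the constitutive hexokinase of most tissues, stood at 71.8, 59.5 and 64.5 FPKM in controls and at 45.5, 41.0 and 46.1 FPKM in strained cells. It fell 1.48-fold (log2 fold change -0.55 ± 0.10 SE, limma adjusted p = 0.0030). Neither gene overlapped between groups. Hk1 was the more abundant in every library, and its share of the summed hexokinase FPKM was 74.1% ± 3.36 in controls and 79.8% ± 2.32 under strain. The summed FPKM of the hexokinase pair was 77.3 to 102 in controls and 51.8 to 58.4 under strain.

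The next enzyme moved the other way. Gpi, the isomerase that converts glucose phosphate into fructose phosphate, stood at 150, 114 and 123 FPKM in controls and at 164, 172 and 209.7 FPKM in strained cells. It rose 1.41-fold (log2 fold change 0.49 ± 0.13 SE, limma adjusted p = 0.021), with the lowest strain library above the highest control. The call was lost without control replicate 2 or control replicate 3 (limma adjusted p = 0.075 and 0.069; 0.0024 to 0.075 over 15 alternatives).

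Phosphofructokinase commits the sugar to glycolysis and is built from 3 subunit types. Pfkm, the muscle type, stood at 6.50, 7.23 and 7.02 FPKM in controls and at 11.2, 10.95 and 12.8 FPKM in strained cells. It rose 1.68-fold (log2 fold change 0.67 ± 0.10 SE, limma adjusted p = 0.00093), and its controls were close together. Pfkl, the liver type and the most abundant of them, averaged 48.5 ± 9.74 FPKM in controls and 54.8 ± 7.41 FPKM in strained cells and was not called. Pfkp, the platelet type, averaged 13.5 ± 2.92 and 15.7 ± 1.003 FPKM and was not called; it passed as higher only without control replicate 1 (limma adjusted p = 0.043; 0.043 to 0.58 over 15 alternatives). The share of Pfkm in the summed FPKM of this step was 7.86% to 12.2% in controls and 13.7% to 14.7% under strain.

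The PFKFB enzymes set the level of fructose bisphosphate signal that activates phosphofructokinase. Of their 4 genes, Pfkfb3 led in every library. It stood at 18.7, 10.6 and 14.5 FPKM in controls and within 12.3 to 12.98 FPKM in strained cells, and it was not called. Pfkfb2 averaged 2.49 ± 0.28 and 1.99 ± 0.50 FPKM and was not called. Pfkfb1 and Pfkfb4 stayed under 0.35 FPKM in every library and were not tested.

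Aldolase cleaves the sugar into triose phosphates. Aldoa, the main isoform here, averaged 344 ± 45.1 FPKM in controls and 341 ± 51.4 FPKM in strained cells (log2 fold change -0.01 ± 0.14 SE). Aldoc, the isoform best known from brain, stood at 9.55, 7.32 and 9.45 FPKM in controls and at 14.7, 14.3 and 17.6 FPKM in strained cells. It rose 1.77-fold (log2 fold change 0.76 ± 0.12 SE, limma adjusted p = 0.0019), without overlap. Its share of aldolase FPKM was 2.49% ± 0.22 in controls and 4.36% ± 0.15 under strain, so Aldoa still made up most of the step.

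Of Tpi1, Gapdh and Pgk1, the genes of the next steps, only Pgk1 was called. Tpi1, which interconverts the triose phosphates, averaged 20.2 ± 4.20 and 25.5 ± 3.28 FPKM and was not called. It passed as higher with equal sums and without control replicate 1 (limma adjusted p = 0.045 and 0.042; 0.042 to 0.33 over 15 alternatives). Gapdh, which reduces NAD and is often used as a reference gene, stood at 793, 697 and 711 FPKM in controls and at 775, 782 and 1023 FPKM in strained cells. Strain replicate 3 was far above the other strain libraries, and Gapdh was not called (log2 fold change 0.22 ± 0.14 SE, limma adjusted p = 0.24). It passed only after quantile normalization and with equal sums (limma adjusted p = 0.029 and 0.044; 0.029 to 0.44 over 15 alternatives). Pgk1, the first step that yields ATP, stood at 428, 338 and 359 FPKM in controls and at 478, 475 and 544 FPKM in strained cells. It rose 1.33-fold (log2 fold change 0.42 ± 0.12 SE, limma adjusted p = 0.026), a call that was lost without control replicate 2 or control replicate 3 (limma adjusted p = 0.091 and 0.093; 0.0040 to 0.093 over 15 alternatives).

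Pgam1, a mutase that moves the phosphate of phosphoglycerate, stood at 301, 236 and 258 FPKM in controls and at 323, 319.7 and 371 FPKM in strained cells. It rose 1.27-fold at the edge of the threshold (log2 fold change 0.35 ± 0.12 SE, limma adjusted p = 0.047). The call held in 8 of 15 alternatives and was lost, among others, when any library other than control replicate 1 was left out (limma adjusted p 0.071 to 0.15 in these, 0.0074 to 0.15 over all 15). Its muscle isoform gene Pgam2 was listed at 0 in 5 libraries and at 0.071 FPKM in strain replicate 3. Pkm, the pyruvate kinase gene that yields the M1 and M2 isoforms by splicing, averaged 466 ± 48.0 and 495 ± 60.3 FPKM and was not called, and gene-level values do not separate its isoforms.

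Enolase, which makes phosphoenolpyruvate, showed 3 genes with 3 different patterns. Eno3, the beta-enolase known from skeletal muscle, stood at 2.86, 5.29 and 4.66 FPKM in controls and at 17.3, 18.1 and 24.6 FPKM in strained cells. It rose 4.68-fold, the largest change of the 37 genes (log2 fold change 2.01 ± 0.19 SE, limma adjusted p = 0.00014). Eno2, the gamma-enolase known from neurons, stood at 7.73, 7.72 and 6.28 FPKM in controls and at 3.70, 4.94 and 4.25 FPKM in strained cells. It fell 1.69-fold (log2 fold change -0.64 ± 0.12 SE, limma adjusted p = 0.0042). In controls Eno2 was above Eno3 in every library, and under strain Eno3 was above Eno2 in every library.

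Eno1, the alpha-enolase of most tissues, averaged 575 ± 63.7 FPKM in controls and 641 ± 90.5 FPKM in strained cells and was not called (log2 fold change 0.15 ± 0.14 SE, limma adjusted p = 0.41). It made up 98.0% ± 0.45 of enolase FPKM in controls and 96.4% ± 0.19 under strain. The share of Eno3 was 0.749% ± 0.288 in controls and 2.99% ± 0.18 under strain, and that of Eno2 was 1.25% ± 0.21 and 0.655% ± 0.139. Shares are given as descriptions and were not tested.

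Markers of the tissues that these isoforms are known from were looked at beside them. Of 16 skeletal muscle markers, 13 stayed under 1 FPKM in every library, and Ckm, Myh2, Myh4, Myh7 and Tnni2 were at 0 in all of them. Their summed FPKM was 4.76 to 6.83 in controls and 5.70 to 10.99 under strain, and neither of the 2 tested, Acta1 and Des, was called. Among those under the filter, 2 were higher under strain without overlap between groups. Casq1, a calcium-binding protein of muscle, was at 0.475 to 0.753 FPKM in controls and 0.944 to 1.68 FPKM with strain. The troponin gene Tnnt3 was at 0.0853 to 0.140 and 0.222 to 0.458 FPKM. The myosin gene Myh1 went the other way without overlap, at 0.0306 to 0.0825 FPKM in controls and 0.0158 FPKM or less with strain. Of 12 neural markers, 10 stayed under 1 FPKM in every library, and the neuronal Rbfox3 and the glial Gfap were at 0. Their summed FPKM was 30.8 to 33.0 in controls and 39.03 to 49.1 under strain, and most of it was S100b, which nucleus pulposus cells are also known to express. Both tested neural genes, S100b and Tubb3, rose (limma adjusted p = 0.015 for each). The part of other cell types in the enolase and aldolase values was not tested.

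**Figure D2:**
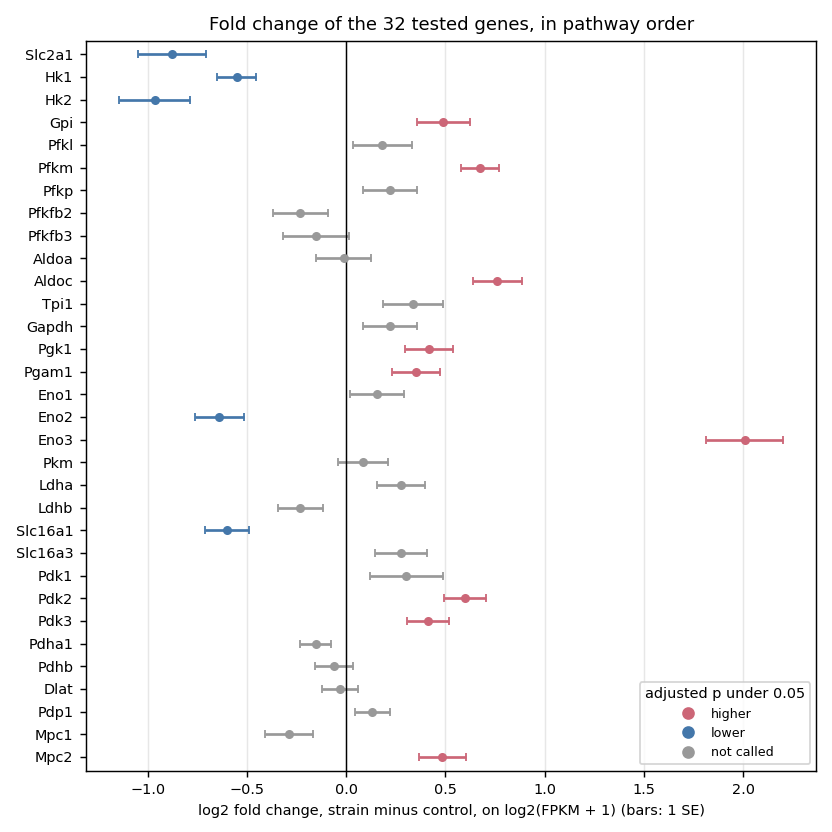
Log2 fold change (strain minus control, on log2(FPKM + 1)) of the 32 tested genes in pathway order, with bars of 1 SE; red and blue points are called higher and lower and grey points are not called. Eno3 lies at 2.01, and the 5 genes called lower lie between -0.97 and -0.55.

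Lactate dehydrogenase genes were not called. Ldha, the muscle-type subunit that favours lactate production, stood at 582, 449 and 525 FPKM in controls and at 609.7, 601 and 666 FPKM in strained cells. The groups did not overlap, and the log2 fold change was 0.28 ± 0.12 SE (limma adjusted p = 0.11). Scaling to equal sums was the 1 alternative of 15 in which it passed (limma adjusted p = 0.021; 0.021 to 0.31 over 15). Ldhb, the heart-type subunit, stood at 14.97, 15.03 and 15.3 FPKM in controls and at 14.3, 10.6 and 13.6 FPKM in strained cells (log2 fold change -0.23 ± 0.11 SE, limma adjusted p = 0.15). Its share of lactate dehydrogenase FPKM was 2.51% to 3.24% in controls and 1.73% to 2.29% under strain.

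Of the lactate transporters, 1 of 2 was called. Slc16a1, which encodes MCT1, stood at 64.3, 50.9 and 60.7 FPKM in controls and at 41.6, 38.4 and 34.8 FPKM in strained cells. It fell 1.53-fold (log2 fold change -0.60 ± 0.11 SE, limma adjusted p = 0.0037), and no strain library reached the lowest control. Slc16a3, which encodes MCT4, the transporter typical of lactate-exporting cells, stood at 46.6, 34.0 and 39.7 FPKM in controls and at 47.9, 43.5 and 54.5 FPKM in strained cells and was not called (log2 fold change 0.28 ± 0.13 SE, limma adjusted p = 0.13). It passed after quantile normalization and with equal sums (limma adjusted p = 0.043 and 0.038; 0.038 to 0.36 over 15 alternatives). Slc16a3 made up 40.5% ± 1.29 of the FPKM of the pair in controls and 55.9% ± 4.44 under strain. The more abundant RNA of the pair was Slc16a1 in every control and Slc16a3 in every strain library. The accessory gene of both transporters, Bsg (basigin), averaged 349 ± 19.9 and 365 ± 63.3 FPKM and was not called.

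**Figure D3:**
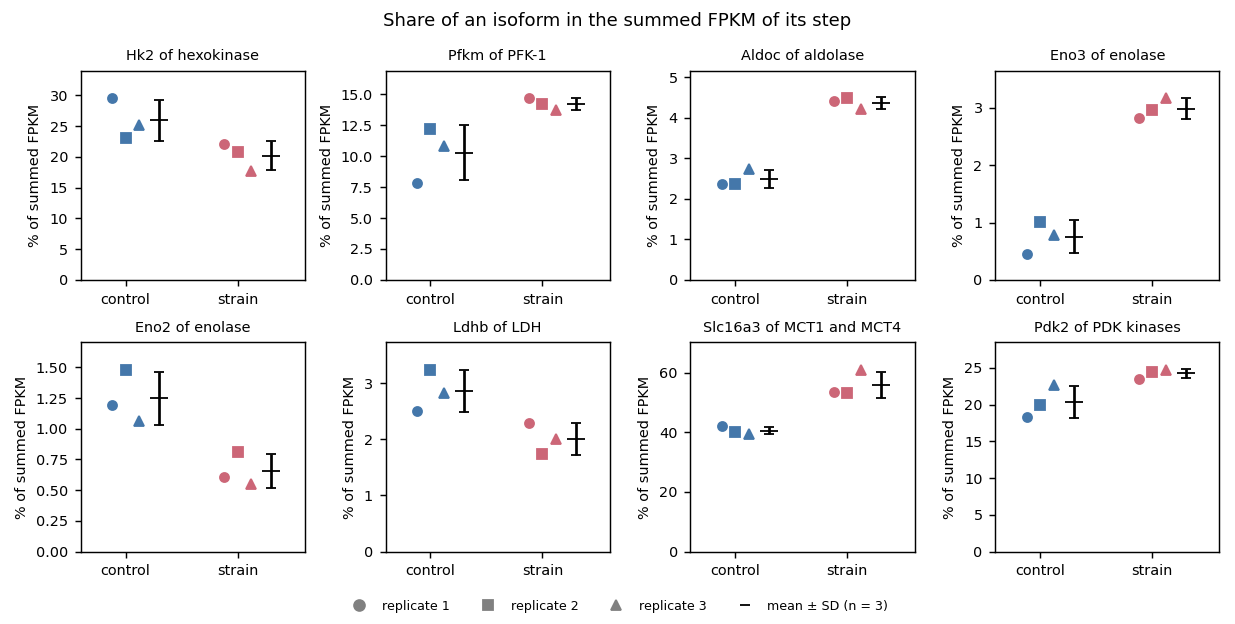
Share of 8 isoforms in the summed FPKM of the genes of their step, per library, with the mean and SD of each group (n = 3); each vertical axis starts at 0 and has its own range. The share of Slc16a3 goes from 40.5% to 55.9% and that of Eno3 from 0.749% to 2.99% between the group means.

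Among the kinases that switch off pyruvate dehydrogenase, 2 of 4 rose. Pdk2 stood at 5.21, 4.38 and 5.24 FPKM in controls and at 7.33, 8.10 and 8.56 FPKM in strained cells. It rose 1.62-fold (log2 fold change 0.60 ± 0.10 SE, limma adjusted p = 0.0026). Pdk3 stood at 8.76, 9.87 and 7.76 FPKM in controls and at 11.1, 12.5 and 12.4 FPKM in strained cells and rose 1.37-fold (log2 fold change 0.41 ± 0.11 SE, limma adjusted p = 0.016). Both were higher in each strain library than in any control. The Pdk3 call was lost without control replicate 1, control replicate 3 or strain replicate 2 (limma adjusted p = 0.055, 0.058 and 0.055; 0.0062 to 0.058 over 15 alternatives).

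Pdk1, the kinase known as a target of HIF-1, stood at 13.7, 7.22 and 9.65 FPKM in controls and at 12.02, 11.98 and 13.3 FPKM in strained cells. The controls spread widely and overlapped the strain libraries, and Pdk1 was not called (limma adjusted p = 0.23). Without control replicate 1 it passed (limma adjusted p = 0.031; 0.031 to 0.64 over 15 alternatives). Pdk4, the kinase induced by fasting, stayed at 0.343 to 0.736 FPKM in all 6 libraries and was not tested.

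Of the complex itself, the 3 subunit genes among the 37 were not called. Pdha1, the alpha subunit of the decarboxylase, averaged 54.03 ± 1.58 FPKM in controls and 48.5 ± 0.40 FPKM in strained cells, without overlap (log2 fold change -0.15 ± 0.08 SE, limma adjusted p = 0.15). Pdhb, the beta subunit, averaged 29.9 ± 0.85 and 28.7 ± 3.25 FPKM, and Dlat, the acetyltransferase core, 15.6 ± 0.62 and 15.3 ± 1.23 FPKM. Pdp1, a phosphatase that switches the complex on, averaged 5.90 ± 0.31 and 6.56 ± 0.23 FPKM and was not called (limma adjusted p = 0.28). Outside the 37 genes, Pdhx, which anchors the shared dehydrogenase subunit in the complex, fell from 4.59 ± 0.75 to 2.60 ± 0.41 FPKM (limma adjusted p = 0.0066). Dld, that shared subunit, averaged 40.2 ± 2.42 and 34.1 ± 3.39 FPKM, without overlap, and was not called (limma adjusted p = 0.092). Both were named after their values were seen.

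The mitochondrial pyruvate carrier is a dimer of MPC1 and MPC2. Mpc2 stood at 6.49, 6.93 and 6.50 FPKM in controls and at 7.97, 10.4 and 10.9 FPKM in strained cells. It rose 1.47-fold (log2 fold change 0.48 ± 0.12 SE, limma adjusted p = 0.014), a call lost only without control replicate 1 among the 15 alternatives (limma adjusted p = 0.052; 0.0035 to 0.052 over 15). Mpc1 stood at 37.1, 43.7 and 40.5 FPKM in controls and at 31.0, 29.4 and 38.9 FPKM in strained cells and was not called (limma adjusted p = 0.090). Strain replicate 3 lay among the controls, and without it Mpc1 passed as lower (limma adjusted p = 0.012; 0.012 to 0.25 over 15 alternatives).

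The libraries of a group differed in a common direction across these genes. Of the 32 tested genes, 21 were highest among the controls in replicate 1 and 22 were lowest in replicate 2, against 29.3% and 29.1% of all tested genes. All 5 genes called lower were highest in control replicate 1. Under strain, 23 of the 32 were highest in replicate 3, against 50.8% of all tested genes. The median deviation of the 32 genes from their group mean was 0.14 and -0.14 on the log2 scale in control replicates 1 and 2 and 0.11 in strain replicate 3. Without control replicate 3 the number of members called higher was 5, without control replicate 2 it was 6, and the number called lower was 5 in both cases. The part of culture conditions or RNA quality in this spread was not tested.

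**Figure D4:**
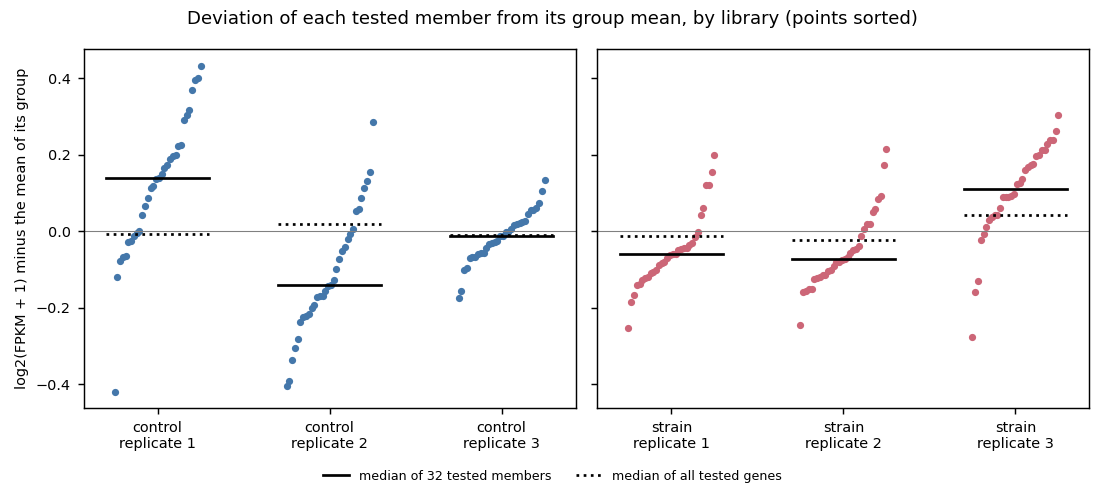
Deviation of log2(FPKM + 1) of each of the 32 tested genes from its group mean, by library, with points sorted within a library; solid lines are the medians of these genes and dotted lines those of all tested genes. The solid line lies at 0.14 in control replicate 1, -0.14 in control replicate 2 and 0.11 in strain replicate 3.

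The stretch of DNA just before the start of each gene is shown for 6 of the genes that were called, to set genes that fell beside genes that rose. RefSeq windows for the rat assembly GRCr8 were found for 34 of the 37 genes by symbol (38 windows, since some genes have several starts), and the 250 bases before the start were read. The core of the hypoxia response element, ACGTG on either strand, is in capitals below; within the E-box CACGTG it overlaps that motif, which reads the same on both strands, and the 6 bases are then in capitals. The regions are chr5:138002272-138002521 (plus strand) for Slc2a1, chr2:194812410-194812659 (plus strand) for Slc16a1, chr4:159267221-159267470 (minus strand) for Eno2, chr10:55868936-55869185 (plus strand) for Eno3, chr1:250672902-250673151 (plus strand) for Pgam1 and chr10:80483913-80484162 (minus strand) for Pdk2, each printed in the direction of its gene.
Slc2a1: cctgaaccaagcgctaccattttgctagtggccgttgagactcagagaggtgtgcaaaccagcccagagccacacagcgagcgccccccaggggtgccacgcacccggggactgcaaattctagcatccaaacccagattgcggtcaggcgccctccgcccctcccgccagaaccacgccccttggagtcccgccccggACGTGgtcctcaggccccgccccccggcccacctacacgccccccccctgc
Slc16a1: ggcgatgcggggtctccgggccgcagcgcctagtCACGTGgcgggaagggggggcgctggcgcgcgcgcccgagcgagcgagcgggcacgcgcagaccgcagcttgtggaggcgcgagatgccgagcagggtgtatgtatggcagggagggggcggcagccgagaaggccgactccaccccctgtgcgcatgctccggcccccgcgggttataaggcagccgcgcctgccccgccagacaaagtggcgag
Eno2: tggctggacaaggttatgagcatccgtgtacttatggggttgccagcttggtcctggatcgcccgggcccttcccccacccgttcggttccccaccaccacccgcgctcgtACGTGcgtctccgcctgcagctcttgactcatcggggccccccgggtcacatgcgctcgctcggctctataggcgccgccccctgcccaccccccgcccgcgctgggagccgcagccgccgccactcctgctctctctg
Eno3: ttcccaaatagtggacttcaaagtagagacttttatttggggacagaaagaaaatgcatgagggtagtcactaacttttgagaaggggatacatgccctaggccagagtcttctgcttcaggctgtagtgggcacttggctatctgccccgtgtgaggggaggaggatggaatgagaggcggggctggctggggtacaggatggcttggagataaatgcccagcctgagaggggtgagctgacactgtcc
Pgam1: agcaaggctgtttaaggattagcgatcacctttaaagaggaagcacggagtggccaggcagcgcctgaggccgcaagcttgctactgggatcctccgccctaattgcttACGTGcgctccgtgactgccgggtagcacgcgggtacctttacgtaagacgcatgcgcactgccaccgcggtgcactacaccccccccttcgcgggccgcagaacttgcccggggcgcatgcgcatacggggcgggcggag
Pdk2: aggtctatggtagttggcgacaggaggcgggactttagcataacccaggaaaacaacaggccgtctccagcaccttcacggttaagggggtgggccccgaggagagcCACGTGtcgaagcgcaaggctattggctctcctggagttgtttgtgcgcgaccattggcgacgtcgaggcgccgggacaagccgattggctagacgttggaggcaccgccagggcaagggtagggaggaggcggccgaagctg

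The ACGTG core began 51 bases before the start of Slc2a1, 139 before that of Eno2 and 141 before that of Pgam1. Within an E-box, the match began 216 bases before the start of Slc16a1 and 143 before that of Pdk2. The window of Eno3, the gene with the largest rise, held no ACGTG, and neither did that of Hk2, the gene with the largest fall. ACGTG was found in 4 of the 5 genes that fell, 5 of the 8 that rose and had a window, and 6 of the 17 tested genes that were not called. It was present in 24.2% of the 7773 tested genes with a window and in 16.6% of all 33469 windows, which are less rich in G and C than the 38 windows of the glycolysis and pyruvate genes (median 51.2% against 61.2%). CACGTG was found in 5 of the 34 genes and in 8.98% of tested genes. A match describes the letters only and says nothing about binding.

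Neighbouring pathways were counted from lists. Over all tested genes 16.4% were higher and 19.0% lower, which is the background for each list. In the list of other glycolysis and pyruvate genes, 5 of 18 tested members rose and 4 fell. Slc2a6, a transporter of the glucose transporter family, fell from 5.59 ± 0.67 to 1.14 ± 0.27 FPKM, and Pdp2, another pyruvate dehydrogenase phosphatase, from 7.01 ± 0.71 to 2.73 ± 0.12 FPKM. Slc2a10, of the same transporter family, rose from 1.10 ± 0.33 to 2.66 ± 0.20 FPKM (limma adjusted p = 5.6e-05, 0.00012 and 0.0017 for these 3 genes). Of the isoforms of liver or testis, Slc2a2, Gapdhs, Pgk2, Pklr and Pdha2 were listed at 0 in every library.

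The pentose phosphate pathway, which branches off glucose phosphate and makes NADPH and ribose, had 5 falls and 1 rise among 8 tested genes, with a median log2 fold change of -0.38. Pgd, its oxidative dehydrogenase, fell from 203 ± 31.3 to 119 ± 13.1 FPKM, Rpia, the ribose isomerase, from 8.03 ± 1.12 to 5.25 ± 0.20 FPKM, and Tkt, transketolase, from 92.6 ± 12.01 to 63.4 ± 8.90 FPKM (limma adjusted p = 0.0028, 0.0072 and 0.012). Of 4 tested genes of gluconeogenesis and pyruvate carboxylation, 3 rose and 0 fell: Pck2, the mitochondrial carboxykinase, from 25.6 ± 8.37 to 48.5 ± 7.05 FPKM, Slc37a4, the glucose phosphate carrier of the endoplasmic reticulum, from 3.90 ± 0.51 to 6.42 ± 0.38 FPKM, and the phosphatase gene G6pc3 from 58.1 ± 3.38 to 74.8 ± 11.4 FPKM (limma adjusted p = 0.0091, 0.0031 and 0.044). The classic gluconeogenic genes Pck1, Fbp1, Fbp2 and G6pc stayed under 1 FPKM in every library.

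The tricarboxylic acid cycle, which burns the acetyl group made from pyruvate, had 2 rises and 0 falls among 19 tested genes, a smaller share than over all genes. The rises were Idh2, the mitochondrial NADP-linked isocitrate dehydrogenase, from 24.2 ± 2.37 to 40.7 ± 6.15 FPKM, and Suclg2, a subunit of succinyl-CoA ligase, from 15.9 ± 0.45 to 18.99 ± 0.33 FPKM (limma adjusted p = 0.0022 and 0.043). Of 7 tested genes of the shuttles that carry cytosolic NADH into the mitochondrion, 2 rose and 1 fell. The aspartate-glutamate carrier genes went apart: Slc25a12 rose from 6.08 ± 0.56 to 10.8 ± 0.45 FPKM and Slc25a13 fell from 5.08 ± 0.54 to 3.62 ± 0.26 FPKM, while the oxoglutarate carrier gene Slc25a11 rose from 27.7 ± 1.41 to 37.9 ± 4.74 FPKM (limma adjusted p = 0.00057, 0.019 and 0.012).

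Glycogen genes had 4 rises and 1 fall among 10 tested. Gyg1, the primer of glycogen chains, rose from 18.7 ± 2.73 to 26.3 ± 1.71 FPKM and Pygl, a glycogen phosphorylase, from 15.8 ± 3.39 to 24.4 ± 1.52 FPKM, whereas Gbe1, the branching enzyme, fell from 15.5 ± 3.09 to 9.72 ± 0.69 FPKM (limma adjusted p = 0.012, 0.010 and 0.0076). Among 12 tested regulators of glycolytic transcription, 5 fell and 0 rose. Egln3, an oxygen sensor enzyme and known HIF target, fell from 101 ± 26.9 to 30.9 ± 10.5 FPKM, and Epas1, which encodes HIF-2 alpha, from 27.1 ± 1.44 to 14.1 ± 1.55 FPKM (limma adjusted p = 0.0030 and 0.00025). Hif1an, the asparagine hydroxylase that restrains HIF, fell from 7.59 ± 0.56 to 5.61 ± 0.15 FPKM (limma adjusted p = 0.013). Hif1a itself averaged 76.9 ± 5.60 FPKM in controls and 71.6 ± 8.67 FPKM in strained cells and was not called (limma adjusted p = 0.49); its protein is controlled mainly by degradation, which RNA does not show.

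**Figure D5:**
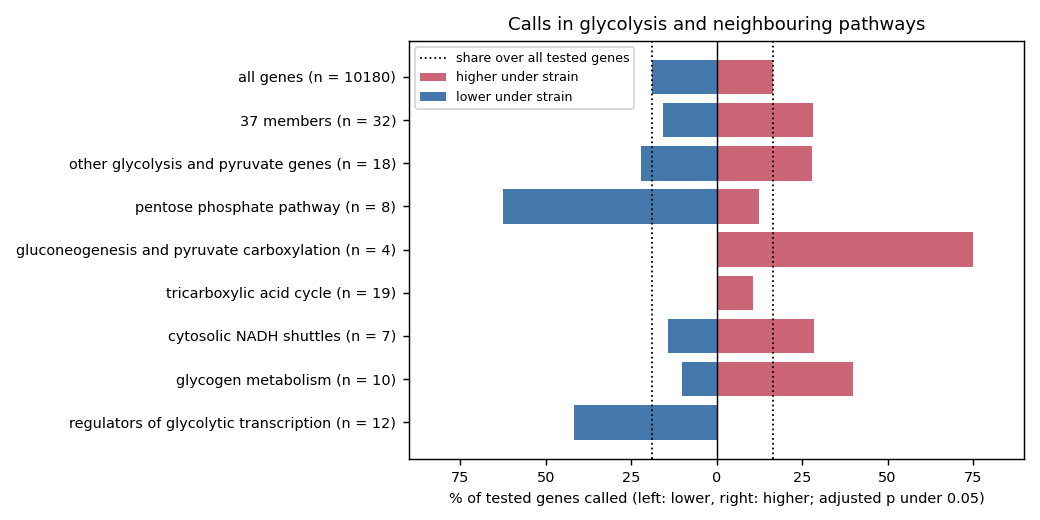
Share of tested genes called higher (red, to the right) and lower (blue, to the left) in each list, with the number tested; dotted lines mark the shares over all tested genes, 16.4% higher and 19.0% lower. The pentose phosphate list and the regulators extend farthest to the left, and gluconeogenesis, with 4 tested genes, farthest to the right.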

How the data were processed

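Total RNA of rat nucleus pulposus cells was sequenced on Illumina libraries, per the labels' protocols. The deposited values were taken as FPKM made by the authors, because they are not whole numbers and Cufflinks and Cuffdiff 2.2.1, with cutadapt 1.9.3, HISAT2 2.0.4 and DESeq, are named in the submitters' processing notes. Their roles, the annotation, any library scaling and the handling of reads shared with processed pseudogenes, which many glycolytic genes have, are not given in the sources used here. Gapdh, Aldoa, Eno1, Pgam1, Pgk1, Ldha and Tpi1 are therefore uncertain in level. The notes name only the human build hg19 although symbols are rat, so no coordinates of the files were used. FPKM keep no read totals, so no counting interval was computed.

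Of 22601 rows, 27 named as calendar dates and 1 unreadable row were left out. Genes averaging 1 FPKM or more were fitted as log2(FPKM + 1) with limma 3.58.1 in R 4.3.3 (trend and robust moderation, two-sided, 3 against 3), with p-values adjusted over all 10180 genes. Log2 fold changes are on this scale, which understates low genes, and folds are ratios of mean FPKM. The fit was also run on simulated data with independent noise in each gene and library, so shifts of a library shared across genes were not covered. The members and lists were chosen with earlier results of these data known. All 37 members are accounted for, with values per library for those called. Of each neighbouring list the 3 called genes with the smallest p are named, and Hif1a; Bsg, the marker genes and genes at 0 were named after their values were seen. Alternatives changed the pseudocount (0.1, 0.5), the filter (none, 5 FPKM), the scaling, the moderation, the replicate block and the libraries used.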

Additional observations from a re-analysis of the deposited data

How the results depend on the processing

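Of 479 values of member log2 fold changes under the alternatives, 443 kept direction and call, 15 lost the call, 10 gained one and 11 changed sign. Slc2a1, Hk1, Hk2, Eno2, Slc16a1, Eno3, Pfkm, Aldoc and Pdk2 kept their calls in all 15 alternatives. All changes of sign were in genes without a call: Pfkfb3 (-0.35 to 0.0323 over the fits that leave out 1 library), Aldoa (-0.13 to 0.0869, with 0.0359 after median scaling and 0.0442 with equal sums), Pkm (-0.0122 to 0.17) and Dlat (-0.0753 to 0.0303, with 0.0358 after quantile normalization, 0.0160 after median scaling and 0.0210 with equal sums); the cause was not tested. Leaving out 1 library gave 2363 (without control replicate 1) to 3572 genes called, 1060 to 1510 of them higher and 1303 to 2062 lower, and 5 to 10 members higher. The filter at 5 FPKM, which tests fewer genes, gave 1071 higher.

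With the replicate number as a block, 8 members were higher and 5 lower, and 1441 and 1675 of all genes. Deviations of same-numbered libraries correlated at 0.03, 0.11 and -0.12, and those of the other pairs at -0.21 to 0.12. These values cannot tell whether same-numbered libraries share an animal or a culture. The unknown depth and 3 libraries a group limit what can be detected.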
